A study of Mus musculus with 4 samples.

Results

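RNA levels of the collagen chain genes were measured in whole kidney of Th3 mice and set against those in control kidney. The members were all probes, control spots aside, whose gene name in the array files had the form of a collagen chain (Col, a type number, a, a chain number). The rule found 80 of the 41174 probes on the array, for 40 genes. Of these probes, 54 were well above background on every array in at least 1 channel, and 34 genes had a probe that could be tested among 17616 genes in all. Genes were grouped by collagen type into 3 genes of collagen VI, 11 of the fibrillar collagens, 9 of basement membrane and its anchoring zones, and 17 others. The rule for members used gene names and no measured value, but it was chosen with earlier results of these data known.

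The Th3 mouse models beta-thalassemia, an anaemia of deficient beta-globin, and was made by deleting the adult beta-globin genes beta-major and beta-minor. The labels describe the other group as control, and do not give the number of deleted chromosomes, the strain background, sex or age for either group. Total RNA of 4 Th3 and 4 control kidney samples was hybridised in pairs on 4 two-colour arrays, with Th3 in Cy5 on arrays 1 and 2 and in Cy3 on arrays 3 and 4. Whether every sample is from an animal of its own is not in the labels, and variation among the arrays could be purely technical. The main fit removes the difference between arrays 1 and 2 and arrays 3 and 4 as a dye term. Its p-values therefore rest on the spread within these array pairs and on a prior variance shared by all genes. They do not measure the spread over all 4 arrays.

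Collagens are trimers of alpha chains in which glycine recurs at a fixed spacing, so that the chains can wind into a triple helix. Fibrillar collagens are cut from procollagens, assemble into fibrils and are cross-linked, and in kidney they are made mainly by interstitial and perivascular cells. Type IV collagens form the sheets of tubular and glomerular basement membranes. Collagen VI is built from chains of its own into beaded microfilaments that lie beside basement membranes and fibrils. In whole kidney RNA, fewer cells of a type and less RNA per cell cannot be told apart.

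In each channel of the 4 arrays, 61.8% to 72.2% of probes stood well above background, and saturation was seen in 0 spots. Precision is limited throughout by there being 4 arrays. The targeted locus was checked first: Hbb-bt, adult beta-globin, had log2 ratios of -3.13, -3.16, -3.93 and -4.02 on arrays 1 to 4 (Th3 over control throughout). All 10 kidney tubule markers were measured, with summed signals of 368348 to 465228 in Th3 and 449712 to 513889 in control samples. Of these markers 3 were lower in Th3 kidney, against 10.6% of all genes, and 7 did not pass. Among the lower ones were the phosphate transporter Slc34a1 (log2 -0.44 ± 0.26) and the cadherin Cdh16 (log2 -0.35 ± 0.04). The brightest in control samples, Umod and Lrp2, did not pass (log2 -0.23 and -0.09). A call in what follows is a Benjamini-Hochberg adjusted p under 0.05 in the limma fit across all genes, and a ± is the SD of the log2 ratio over 4 arrays.

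Collagen chains differed in both directions. Among 34 chains with a tested probe, 8 passed as higher and 7 as lower in Th3, and 19 did not pass, while of all genes 10.9% were higher and 10.6% lower (21.5% in either direction). The highest ratios were those of the collagen VI chains Col6a1 and Col6a2 and of Col12a1 and Col13a1, and the lowest was that of Col3a1, the chain of collagen III. The median log2 ratio over the 34 genes was 0.04, against 0.00 over all genes tested, and 20 of the 34 lay above 0. The log2 ratio had the same sign on all 4 arrays for 9 genes above 0 and 9 below it, against 19.7% and 17.4% of all genes. The signals of the Th3 and the control samples did not overlap for 9 genes that were higher and 5 that were lower in Th3 samples, against 11.4% and 9.59% of all genes. Of all 49 kept collagen probes taken singly, 11 were higher and 9 lower, against 9.27% and 8.92% of all kept probes. The genes without overlap include Col1a2 and Col24a1, which did not pass the test.

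**Figure D1:**
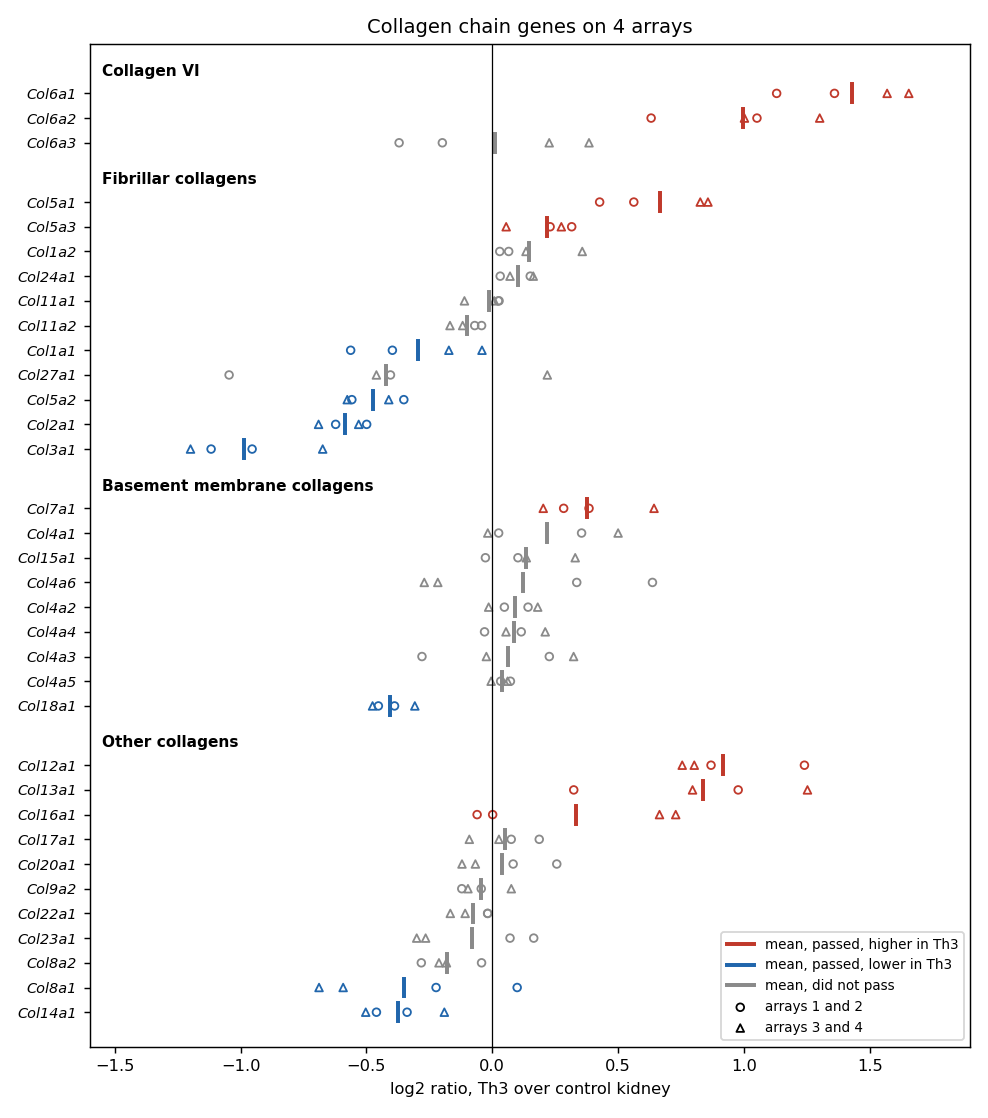
Log2 ratio of Th3 over control kidney for the 34 tested collagen chain genes (rows, grouped by type) on each of 4 arrays; circles are arrays 1 and 2, triangles arrays 3 and 4, and the vertical bar is the mean, coloured by whether the gene passed at an adjusted p under 0.05. The 4 values of Col6a1 lie between 1.13 and 1.65 and those of Col3a1 between -1.20 and -0.67, while the values of Col6a3 fall on both sides of 0.

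Of the 3 collagen VI chains, 2 were higher in Th3 kidney (10.9% of all genes) and the other did not pass. Col6a1, 1 of the chains that every collagen VI monomer holds, had normalised signals of 1079, 1013, 1044 and 1253 in the Th3 samples of arrays 1 to 4, against 420, 463, 352 and 398 in the control samples. Each Th3 sample lay above each control sample, at 2.69-fold on average (log2 1.43 ± 0.23, adjusted p = 0.000228). Its only probe matches the minus strand of chromosome 10, from 76152870 to 76152929 (mouse build mm8). Col6a2, the partner that assembles with Col6a1, had signals of 374, 330, 355 and 434 in Th3 samples, against 180, 213, 177 and 176 in control samples. The groups did not overlap here either, and the difference was 1.99-fold (log2 1.00 ± 0.28, adjusted p = 0.0018). A dimmer second probe of Col6a2 had the same mean log2 ratio (1.00 ± 0.39, adjusted p = 0.0035 among all probes). Col6a3, the longest chain of the trimer, had signals of 1422, 1616, 1490 and 1734 in Th3 samples, against 1632, 2088, 1142 and 1482 in control samples. These ranges overlapped, and the ratios on arrays 1 and 2 were below 0 and those on arrays 3 and 4 above it (-0.20, -0.37, 0.38 and 0.23). The mean log2 ratio of 0.01 had a 95% confidence interval of -0.13 to 0.15 in a fit that takes the difference between these array pairs as a dye term (adjusted p = 0.92). In the authors' deposited table the signed fold was 2.98 for Col6a1 and 1 for this Col6a3 probe. For Col6a2 it was 2.46 for the brighter probe and 3.08 for the dimmer one, so their equal ratios here depend on the processing.

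Col6a1 and Col6a2 are neighbours on chromosome 10 with no protein-coding gene between them, whereas Col6a3 lies on chromosome 1. Their promoters are shown because members of 1 trimer differed in response. Each run is the 250 bases before the transcription start, 5′ to 3′ on the gene's strand, from RefSeq (GRCm38.p6), and capitals mark the motifs searched. They are chr10:76726045-76726294, minus strand, for Col6a1, chr10:76623405-76623654, minus strand, for Col6a2 (the more downstream of 2 listed starts), and chr1:90843972-90844221, minus strand, for Col6a3.
Col6a1: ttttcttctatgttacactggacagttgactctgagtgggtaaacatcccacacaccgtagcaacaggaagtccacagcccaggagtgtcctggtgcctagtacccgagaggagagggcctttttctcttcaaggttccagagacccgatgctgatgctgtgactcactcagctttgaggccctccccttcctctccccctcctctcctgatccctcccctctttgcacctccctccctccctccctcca
Col6a2: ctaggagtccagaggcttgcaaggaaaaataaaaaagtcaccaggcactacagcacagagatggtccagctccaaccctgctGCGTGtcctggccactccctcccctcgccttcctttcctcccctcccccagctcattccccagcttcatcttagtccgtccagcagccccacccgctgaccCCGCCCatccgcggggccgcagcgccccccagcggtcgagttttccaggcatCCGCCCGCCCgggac
Col6a3: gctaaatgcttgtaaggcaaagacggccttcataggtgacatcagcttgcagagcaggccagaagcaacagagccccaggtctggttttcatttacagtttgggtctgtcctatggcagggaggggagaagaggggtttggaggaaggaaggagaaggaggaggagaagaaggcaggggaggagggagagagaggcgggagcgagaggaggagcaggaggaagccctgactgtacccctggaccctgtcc
The motifs were searched on both strands and at any place in the window. They were the TATA box TATAAA, the CCAAT box, the GC box GGGCGG and the hypoxia response core. The core is ACGTG or that word with G as its first base. The Col6a2 window holds 3 GC boxes, of which 2 share bases, and 1 hypoxia response core, while the window of its other listed start holds 1 GC box and no hypoxia response core. The windows of Col6a1 and Col6a3 hold none of these letters. Over all 32851 promoters, a TATA box occurred in 12.4%, a CCAAT box in 33.8%, a GC box in 32.7% and a hypoxia response core in 38.6%. Among 35 promoters listed for 32 of the collagen genes, they occurred in 5, 12, 19 and 10.

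**Figure D2:**
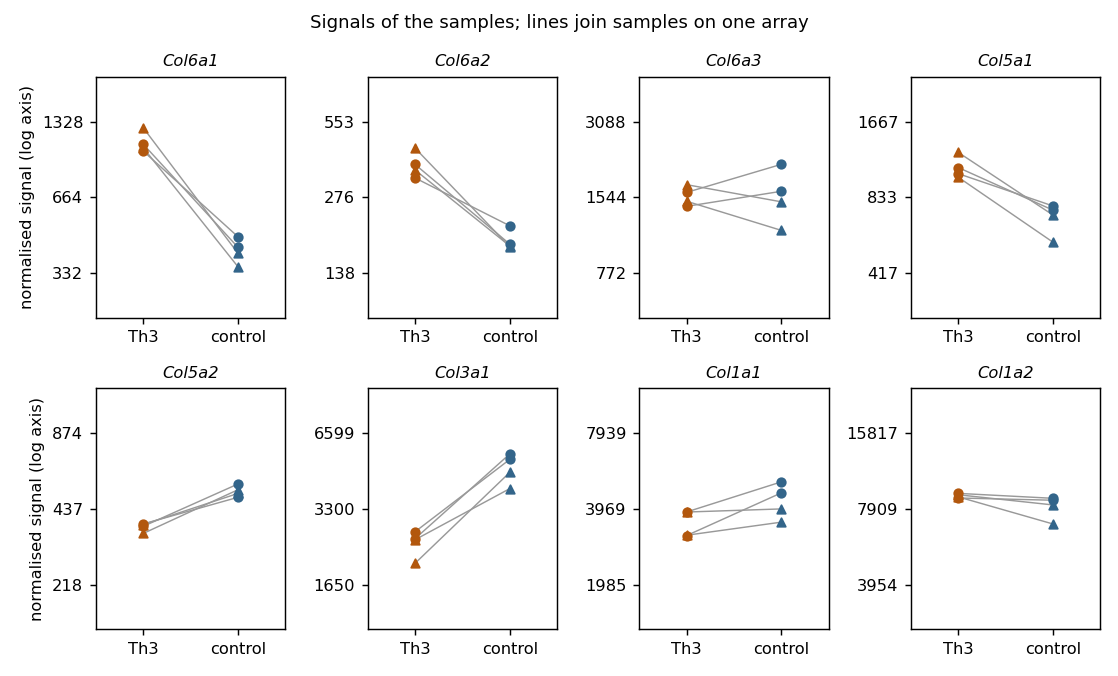
Normalised signal (log axis; each panel spans the same fold range) of collagen VI chains and of chains of collagens I, III and V in the 4 Th3 samples (left) and the 4 control samples (right); lines join the samples of 1 array, circles are arrays 1 and 2 and triangles arrays 3 and 4. The groups are apart for Col6a1, Col6a2, Col5a1, Col5a2, Col3a1 and Col1a2 and overlap for Col6a3 and Col1a1.

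Among the 11 fibrillar chains, 2 were higher (10.9% of all genes), 4 lower (10.6% of all genes) and 5 did not pass. Their median log2 ratio was -0.10. Col3a1 forms collagen III, the homotrimer of reticular fibres, by itself. Its signals were 2671, 2507, 2484 and 2001 in Th3 samples, against 5175, 5440, 3963 and 4596 in control samples. All 4 Th3 samples lay below all 4 control samples, at 0.505 of the control level (log2 -0.99 ± 0.23, adjusted p = 0.00193). The probe spans 45293290 to 45293349 of chromosome 1 (mm8), and the other 2 probes of the gene, upstream of it, were well above background on 0 of 4 arrays in either channel. The promoter of Col3a1 is shown as that of the member with the lowest ratio (chr1:45311288-45311537, plus strand, GRCm38.p6), and it is 1 of the 5 collagen promoters that hold a TATA box, in capitals.
Col3a1: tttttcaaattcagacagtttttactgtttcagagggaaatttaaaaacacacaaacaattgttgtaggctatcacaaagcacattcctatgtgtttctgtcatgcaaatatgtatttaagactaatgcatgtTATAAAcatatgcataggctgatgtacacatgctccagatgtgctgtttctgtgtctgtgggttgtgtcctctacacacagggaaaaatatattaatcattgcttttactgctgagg

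Collagen V copolymerises with collagen I and sets the diameter of fibrils. Its chain Col5a1 had signals of 1094, 1035, 1001 and 1256 in Th3 samples, against 741, 770, 553 and 708 in control samples (log2 0.67 ± 0.21, adjusted p = 0.00153). Its partner Col5a2 had signals of 372, 380, 378 and 349 in Th3 samples, against 548, 485, 502 and 520 in control samples (log2 -0.47 ± 0.11, adjusted p = 0.00549). Neither chain's groups overlapped, and the 2 chains of 1 trimer were thus called in opposite directions. The third chain, Col5a3, had signals of 268 to 297 in Th3 samples and 215 to 261 in control samples, and it passed narrowly (log2 0.22 ± 0.11, adjusted p = 0.0465). Its call was lost in 7 of 19 other settings, among them without array 1, 2 or 3 (adjusted p = 0.103, 0.182 and 0.124).

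Collagen I, the most abundant fibrillar collagen, joins 2 chains from Col1a1 with 1 from Col1a2. Col1a1 had signals of 3853, 3106, 3114 and 3850 in Th3 samples, against 5073, 4588, 3510 and 3961 in control samples, and the groups overlapped. Its log2 ratio was below 0 on all arrays and closest to 0 on arrays 3 and 4 (-0.29 ± 0.23, adjusted p = 0.0175). The call was lost in 6 of 19 settings, among them without array 2 (adjusted p = 0.0739), without array 3 (0.0556) and with array pairs as a random block (0.123). A dimmer Col1a1 probe, at a log2 ratio of -0.16 ± 0.02, did not pass (adjusted p = 0.077 among all probes). Col1a2 had signals of 9097, 8722, 8809 and 8981 in Th3 samples, against 8695, 8545, 6876 and 8185 in control samples. The Th3 signals lay just above the control ones, and the gene did not pass (log2 0.15 ± 0.15, 95% confidence interval 0.00 to 0.29, adjusted p = 0.13).

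Col2a1, the cartilage collagen, gave dim signals of 152 to 158 in Th3 samples and 219 to 248 in control samples (log2 -0.59 ± 0.09, adjusted p = 0.0023). A second probe, which overlaps it, was marked as an outlier by the scanner software and left out; where outlier spots were kept, it stood for the gene at a log2 ratio of -0.19 and the call was lost (adjusted p = 0.129). Agilent's processed signals gave Col2a1 a log2 ratio of -1.05. Col27a1, a fibrillar chain of cartilage and developing tissues, had ratios of -0.40, -1.05, -0.46 and 0.22 and did not pass (adjusted p = 0.0764). It passed without array 4 (log2 -0.59, adjusted p = 0.0426) and without array 1 (log2 -0.58, adjusted p = 0.0013). It also passed with median centring (log2 -0.39, adjusted p = 0.0352). Of its 2 other kept probes, the one at a log2 ratio of -0.35 passed among all probes (adjusted p = 0.0296) and the one at -0.33 did not. Col11a1, Col11a2 and Col24a1 did not pass and had log2 ratios of -0.01, -0.10 and 0.10.

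The glycine spacing of the triple helix can be read in 3 of the 80 member probes, which hold glycine codons (GGN, in capitals) 3 codons apart over their whole length of 60 bases. They are shown because such a probe lies within the helix and, for Col5a1, gave another result than the probe near the end of the gene. The sequences are those of the array files, at chr2:27808732-27811155, plus strand, for Col5a1, chr17:33662796-33662962, plus strand, for Col11a2 and chr9:20536024-20536753, minus strand, for Col5a3 (mm8), and each position spans introns.
Col5a1: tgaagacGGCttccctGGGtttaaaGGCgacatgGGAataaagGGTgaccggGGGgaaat
Col11a2: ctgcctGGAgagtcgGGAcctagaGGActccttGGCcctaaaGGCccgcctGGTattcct
Col5a3: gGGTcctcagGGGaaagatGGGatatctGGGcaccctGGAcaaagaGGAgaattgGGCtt
The Col5a1 helix probe averaged 104 in Th3 samples and 99.4 in control samples, values that include the offset of 50 added to every signal, and did not pass (log2 0.07 ± 0.04, adjusted p = 0.373 among all probes). The brighter probe that stands for Col5a1 averaged 1092 in Th3 samples and 687 in control samples. The mean of both Col5a1 probes was still called, at a log2 ratio of 0.37. The Col11a2 helix probe had a log2 ratio of -0.01 ± 0.11, and the Col5a3 one was too dim to be kept.

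Of 9 basement membrane and anchoring chains, 1 was higher and 1 lower, near the 10.9% and 10.6% of all genes. The sheet-forming collagen IV chains all had log2 ratios between 0.04 and 0.22, and 0 of 6 passed in the limma fit, 0 of 6 also at an unadjusted p under 0.05. Col4a1 had signals of 2234, 2626, 2626 and 2087 in Th3 samples, against 2195, 2054, 1857 and 2113 in control samples (log2 0.22 ± 0.25, 95% confidence interval -0.02 to 0.45, adjusted p = 0.171). Its second probe had a log2 ratio of -0.14, and without array 4 the gene passed narrowly (log2 0.34, adjusted p = 0.0499). Its partner Col4a2 had signals of 2848 to 3194 in Th3 samples and 2755 to 2928 in control samples (log2 0.09 ± 0.09). Col4a3, Col4a4 and Col4a5 form the collagen IV of the mature glomerular basement membrane, and had log2 ratios of 0.06, 0.09 and 0.04. A second Col4a4 probe had 0.33 ± 0.07 and passed among all probes (adjusted p = 0.0122), and with the mean of both probes Col4a4 was called (log2 0.21, adjusted p = 0.0381). Col4a6 had ratios of 0.64 and 0.34 on arrays 1 and 2 but -0.27 and -0.22 on arrays 3 and 4. Each pair of collagen IV genes is transcribed head to head. The RefSeq starts of Col4a1 and Col4a2 lie 21 bases apart, each within the other transcript, so these transcripts overlap at their starts. Those of Col4a6 and Col4a5 lie 1343 bases apart, with a gap between the transcripts.

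Col18a1, a heparan sulfate proteoglycan of basement membranes whose end releases endostatin, was lower in Th3 kidney. Its signals were 11780, 11114, 12027 and 11262 in Th3 samples, against 16122, 14549, 14888 and 15663 in control samples. The groups did not overlap, and the difference was small but even across arrays (log2 -0.41 ± 0.08, adjusted p = 0.00632). A second Col18a1 probe had -0.35 ± 0.15 (adjusted p = 0.0195 among all probes). Col15a1, its relative, did not pass (log2 0.13 ± 0.15). Col7a1, the chain of anchoring fibrils in skin, was higher, with signals of 1439 to 1596 in Th3 samples and 1022 to 1250 in control samples (log2 0.38 ± 0.19, adjusted p = 0.0213). With array pairs as a random block Col7a1 did not pass (adjusted p = 0.0619). Col18a1 lies beyond Col6a1 on chromosome 10, with Pcbp3 and Slc19a1 between them, and the 2 collagen genes were called in opposite directions. On chromosome 1, Col3a1 and Col5a2 are neighbours and were both lower.

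Among the other collagens, 3 of 11 tested genes were higher (10.9% of all genes) and 2 lower (10.6% of all genes). Col12a1, which decorates the surface of collagen I fibrils, had signals of 628, 543, 581 and 675 in Th3 samples, against 266, 297, 345 and 387 in control samples. The groups did not overlap (log2 0.92 ± 0.22, adjusted p = 0.00137), and a dim second probe had 0.24 ± 0.11 (adjusted p = 0.0454 among all probes). With the mean of both Col12a1 probes the log2 ratio was 0.58. Col13a1, a transmembrane collagen of cell junctions, had signals of 439, 377, 377 and 506 in Th3 samples, against 223, 302, 217 and 213 in control samples (log2 0.84 ± 0.39, adjusted p = 0.0069). All 4 of its Th3 samples exceeded all control samples, with the smallest gap on array 2.

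Col16a1, a fibril-associated collagen, was called at a log2 ratio of 0.33 ± 0.42 (adjusted p = 0.00854), but its ratios were -0.06 and 0.00 on arrays 1 and 2 and 0.73 and 0.66 on arrays 3 and 4. The dye term, which also carries any difference between the array pairs, was called for Col16a1, as for 0.891% of all genes. Without that term, or with array pairs as a random block, Col16a1 did not pass (adjusted p = 0.197 and 0.226). Col14a1, another fibril-surface collagen, had signals of 1171, 1420, 1330 and 1177 in Th3 samples, against 1481, 1954, 1518 and 1668 in control samples (log2 -0.37 ± 0.14, adjusted p = 0.0137). The groups did not overlap, although the call was lost with log ratios scaled between arrays (adjusted p = 0.052). Col8a1, a network-forming collagen of vessel walls, had signals of 823, 1310, 1306 and 1290 in Th3 samples, against 961, 1224, 1970 and 2079 in control samples. Its ranges overlapped and its ratio was above 0 on array 2 (log2 -0.35 ± 0.36, adjusted p = 0.0165). The call of Col8a1 was lost in 7 of 19 settings, among them without array 1 (adjusted p = 0.0569) and without array 4 (0.0544), and a dim second probe had 0.08 ± 0.14. The 6 other tested genes of this group, Col8a2, Col9a2, Col17a1, Col20a1, Col22a1 and Col23a1, did not pass and had log2 ratios between -0.18 and 0.05. The 6 genes not tested, because no probe of theirs met the background criterion, were Col9a1, Col9a3, Col10a1, Col19a1, Col25a1 and Col28a1.

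**Figure D3:**
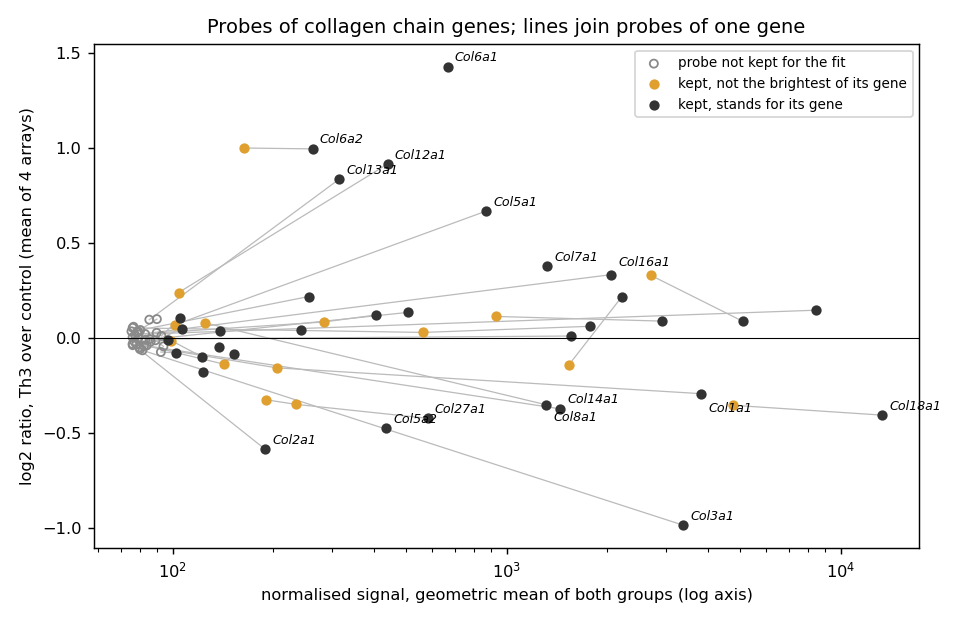
Log2 ratio of Th3 over control (mean of 4 arrays) against the normalised signal (geometric mean of both groups, log axis) for the collagen probes with a value; lines join probes of 1 gene. The brighter and the dimmer probes of Col5a1, Col12a1 and Col3a1 have different ratios. Both Col6a2 probes lie at 1.00 here, but had signed folds of 2.46 and 3.08 in the authors' deposited table.

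Enzymes and partners of collagen were taken as lists, to be read against the 10.9% of all genes that were higher and the 10.6% that were lower. Of 23 tested genes for chain modification and folding, 2 were higher, 3 lower and 18 did not pass. P3h4, a partner of lysyl hydroxylase (log2 0.44 ± 0.11, adjusted p = 0.00662), and Plod1, a lysyl hydroxylase (0.26 ± 0.29), were higher. Plod3, another lysyl hydroxylase, named here after its values were seen, was lower (log2 -0.31 ± 0.10, adjusted p = 0.0127). Serpinh1, the collagen chaperone HSP47, was lower with a wide spread (ratios of -0.50, -1.33, -0.60 and -0.03, adjusted p = 0.0316), as was the prolyl 3-hydroxylase P3h2 (log2 -0.54 ± 0.09, adjusted p = 0.00211).

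Of 14 genes for procollagen processing and cross-linking, 2 were higher, 5 lower and 7 did not pass. Lox, lysyl oxidase, which starts the cross-links of collagen and elastin, had signals of 215, 197, 214 and 184 in Th3 samples, against 106, 135, 89.6 and 107 in control samples (log2 0.90 ± 0.31, adjusted p = 0.00386). No Th3 sample overlapped a control sample, and its relative Loxl2 was higher as well (log2 0.48 ± 0.13, adjusted p = 0.0056). Mep1a, a subunit of the brush-border protease meprin that can cleave procollagen, was lower (log2 -0.85 ± 0.20, adjusted p = 0.00216). So was Pcolce2, an enhancer of procollagen C-proteinase (log2 -0.72 ± 0.09, adjusted p = 0.00153).

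Of 28 fibril partners, 4 were higher (10.9% of all genes), 10 lower (10.6% of all genes) and 14 did not pass. The matricellular protein Ccn2 (log2 0.63 ± 0.25, adjusted p = 0.00814) and the small proteoglycan decorin, Dcn (0.55 ± 0.24, adjusted p = 0.00439), were the highest of those called. Thbs4, a thrombospondin (log2 -0.93 ± 0.33, adjusted p = 0.00363), and fibronectin, Fn1 (-0.57 ± 0.22, adjusted p = 0.00908), were the lowest. Of 18 basement membrane partners, 2 were higher and 1 lower: nidogen, Nid1 (log2 0.41 ± 0.23), and the laminin chain Lama1 (0.25 ± 0.11) were higher, and Lama2 (-0.28 ± 0.17) was lower. Of 14 genes for collagen receptors and uptake, 3 were higher and 2 lower. These counts include Osmr, entered in the list in error, which is known as a receptor of the cytokine oncostatin M rather than of collagen. The highest called were Osmr (log2 0.59 ± 0.22) and Itga11, a collagen-binding integrin chain (0.50 ± 0.38). Mrc2, an endocytic collagen receptor (-0.42 ± 0.22), and Lair1, an inhibitory collagen receptor of leukocytes (-0.36 ± 0.41), were lower.

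**Figure D4:**
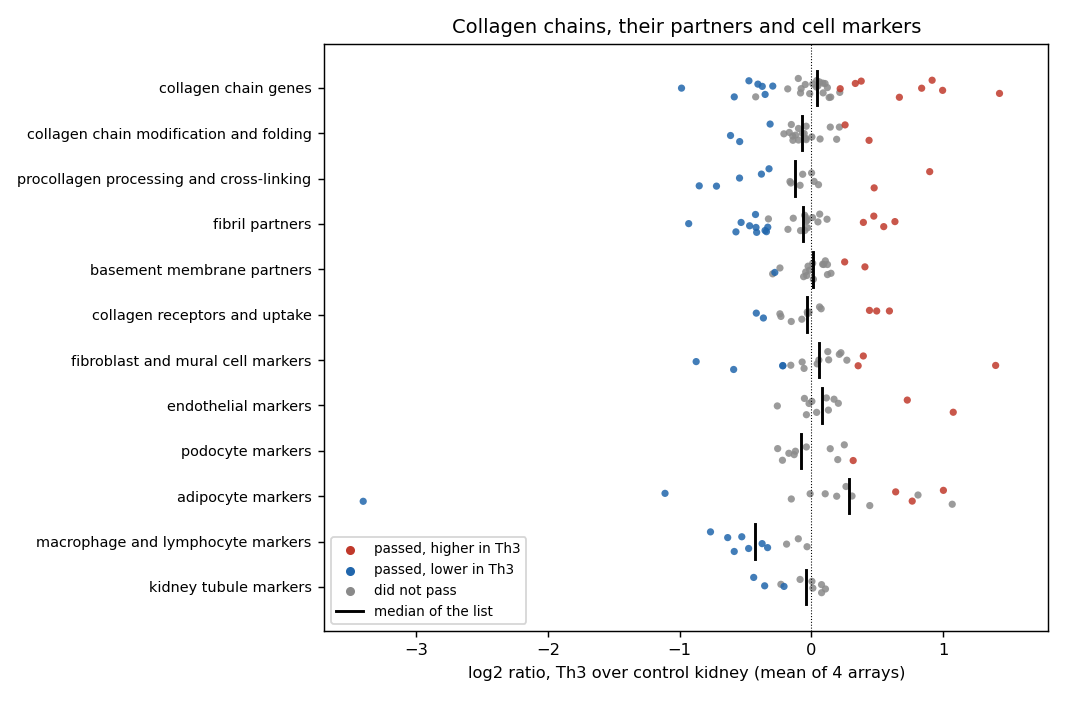
Log2 ratio of Th3 over control kidney (mean of 4 arrays) of the 34 collagen chain genes and of the tested genes of 11 other lists; each point is a gene, coloured by whether it passed, and the black bar is the median of the list. The medians lie between -0.43 for macrophage and lymphocyte markers and 0.29 for adipocyte markers, and the collagen chains spread to both sides of their median of 0.04.

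Markers of cells that make collagens, and of macrophages and lymphocytes, are given beside the same shares of all genes, 10.9% higher and 10.6% lower. Of 17 fibroblast and mural cell markers, 3 were higher, 4 lower and 10 did not pass, with summed signals of 58035 to 66435 in Th3 and 53549 to 68402 in control samples. Rgs5, a pericyte marker, had a log2 ratio of 1.40 ± 0.08 (adjusted p = 0.000191), and Tcf21, a transcription factor of stromal cells and podocytes, one of -0.88 ± 0.08 (adjusted p = 0.000656). Nt5e (log2 0.39 ± 0.23) was higher and Thy1 (-0.59 ± 0.55) lower. The Thy1 ratios were -0.07 and -0.16 on arrays 1 and 2 and -1.09 and -1.04 on arrays 3 and 4. The dye term was called for Thy1, as for 0.891% of all genes. The brightest members Mgp and Tagln both had log2 ratios of -0.22 and passed. Of 12 endothelial markers, 2 were higher and 10 did not pass, with summed signals of 37567 to 46910 in Th3 and 35594 to 39466 in control samples. They were von Willebrand factor, Vwf (log2 1.08 ± 0.17), and the VEGF receptor Flt1 (0.73 ± 0.46); Emcn, the brightest in control samples, had -0.26 and did not pass. Of 10 podocyte markers, 1 was higher and 9 did not pass, with a median log2 ratio of -0.08. Their sums were 19909 to 20641 in Th3 and 17219 to 20864 in control samples. Cd2ap, the brightest podocyte marker, did not pass (log2 0.20). Of 10 macrophage and lymphocyte markers, 7 were lower and 3 did not pass, with sums of 11459 to 22003 in Th3 and 13981 to 35561 in control samples. The 2 lowest called were Ms4a1 (log2 -0.77) and Lyz2 (-0.64), and Lyz2 and Csf1r (-0.48) were the brightest. The median of that list was -0.07 over arrays 1 and 2 and -0.65 over arrays 3 and 4. The part of these cells in the collagen ratios was not tested.

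Adipocytes also express collagen VI, and fat lies around the kidney. Of 14 tested adipocyte markers, 3 were higher (10.9% of all genes) and 2 lower (10.6% of all genes) in Th3 samples. Another 2 (Elovl3 and Lep) were not tested. Their summed signals were 131356 to 165460 in Th3 and 68555 to 195830 in control samples. Adipoq, adiponectin, had log2 ratios of 1.29, 1.88, 1.31 and -0.47 on arrays 1 to 4 (mean 1.00 ± 1.02, adjusted p = 0.0408), and Plin4, a lipid droplet coat protein, a mean of 0.77 ± 0.68. Ucp1, the uncoupling protein of brown fat, was lower on every array (log2 -3.40 ± 0.93), as was Cidea, a lipid droplet protein (-1.11 ± 0.95). Fabp4 and Lpl, the brightest in control samples, did not pass (log2 0.26 and 0.44). Cfd, adipsin, named here after its values were seen, had the highest mean ratio of the list, with ratios of 0.46, 2.11, 2.10 and -0.38, and did not pass (adjusted p = 0.117). Col6a1 and Adipoq were both higher in the Th3 sample on arrays 1 to 3, and on array 4 Col6a1 was higher (log2 1.65) and Adipoq lower. Of the other markers called higher, Plin4 was at -0.16 on array 4. Retn, also named after its values were seen, was at 0.13 there, and the remaining tested markers were lower in the Th3 sample of that array. The part of adipocytes in the collagen VI ratios was not tested.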

How the data were processed

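Spot and local background intensities of the 4 arrays are from Agilent Feature Extraction 9.5.3.1, per the file headers. The deposited scanner files also hold processed intensities (background-subtracted and dye-normalized) and a log10 ratio of Cy5 over Cy3, which checked each array's direction. A combined file deposited by the authors holds log2 ratios of Th3 over control, a signed fold (a score) and an adjusted p-value, whose methods are not given in the sources used here.

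In R 4.3.3 with limma 3.58.1 (the package data.table at version 1.17.8), mean signals underwent normexp correction (offset 50) and within-array loess (span 0.3 and 4 iterations), for which control and outlier spots had no weight. Outlier spots, at most 186 an array, became missing values, and the spots left (43379) gave 41174 probe means. Kept were probes that 1 of the groups showed well above background on each of its 4 arrays and that had values on 3 arrays or more (26434 probes, 49 of them collagen probes). Names follow the array files for members, and otherwise RefSeq (GRCm38.p6) by accession (23374 probes), symbol (6733) or synonym (2959). The remaining 8108 probes kept the file's name. The brightest kept probe stood for its gene. A further 4 probes carry a collagen name in current annotation only and were not members.

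Ratios turned to Th3 over control were fitted with a Th3 and a dye term by lmFit and eBayes (2 residual and 4.52 prior degrees of freedom), and p-values were Benjamini-Hochberg adjusted over 17616 genes. The dye orientation coincides with the array pair, and the 4 arrays share 1 slide and 1 scan date. Signals per sample are channel values after loess and Aquantile scaling, and levels of different probes are not compared. The fit was tested on simulated data. Probe positions are from the array annotation (mm8). Promoter motifs were searched with Python 3.11.15. Alternatives changed the background correction, normalization, filter, outlier spots, dye term, empirical Bayes settings, weights, probe rule or source of values, or left out an array.

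The members, the 11 other lists and the tests were chosen with earlier results of these data known. Any collagen gene could be named. Of each other list, up to 2 called genes with the largest increase and 2 with the largest decrease were named, and the 2 brightest of each cell marker list. A gene that this rule named is not reported here.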

Additional observations from a re-analysis of the deposited data

Results flagged for a closer look

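In each of the 34 tested collagen genes the lowest and the highest array were compared with the other arrays of the group. The log2 ratio of Col11a1 on array 4, -0.11, lay far from the other 3 ratios of that gene (0.03, 0.02 and 0.01 on arrays 1 to 3). Chance marks about 1 in 20 such groups. The control signal of this probe was well above background on 2 of 4 arrays.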

How the results depend on the processing

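The calls of Col6a1 (log2 1.37 to 1.64), Col6a2 (0.89 to 1.49), Col5a1, Col5a2, Col3a1 (-1.12 to -0.85), Col12a1, Col13a1 and Col18a1 held in all 19 alternatives. With array pairs as a random block, 5 collagen genes were higher and 5 lower, and of all genes 646 were higher and 554 lower, against 1927 and 1865 in the fit with the dye term. With log ratios scaled between arrays, 4 collagen genes were lower, and of all genes 1179 were higher and 1128 lower. Without the dye term 1103 were higher and 888 lower. With median centring in place of loess the split was 1943 higher to 1143 lower. With each kept probe tested on its own, 11 of 49 collagen probes were higher and 9 lower, against 9.27% and 8.92% of all probes. The median log2 ratio of the collagen genes was 0.0719 with Agilent's processed signals, 0.0646 with median centring and 0.0616 where both channels had to be above background (31 genes), against 0.0447 otherwise. Leaving out 1 array at a time, the median lay between 0.0260 and 0.0520, 7 to 9 collagen genes were higher and 6 to 7 lower, and 1325 to 1609 of all genes were higher and 1245 to 1575 lower. Fits without an array leave 1 dye orientation with a lone sample, assumed to vary like the others.

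Log2 ratios near 0 changed sign in genes that were not called. Col11a1 was at 0.0596 with Agilent's processed signals, 0.0174 without background correction, 0.049 with the authors' deposited log2 ratios and between -0.0427 and 0.0165 without 1 array. Col6a3 was at -0.00054 without background correction, -0.0867 with scaling and between -0.0326 and 0.0533 without 1 array. Without 1 array, Col4a3 lay between -0.0649 and 0.188 and Col20a1 between -0.0055 and 0.0811. The cause was not tested. Lost calls stand beside each gene in the report. Col8a2 and Col24a1 were called with Agilent's processed signals (adjusted p = 0.035 and 0.0268), and Col8a2 also with 2 other settings. The authors' own deposited adjusted p, by a method not given, was above 0.05 for Col16a1 (0.238), Col8a1 (0.133), Col1a1 (0.0774) and Col5a3 (0.0697). For the other collagen genes called here it was under 0.05.

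No paired analysis was possible because the pairing is already in the data: each ratio sets a Th3 sample against the control sample of its array, and no second group of ratios shares the array numbers. Ratios over all genes tested correlated at 0.671 and 0.712 within the array pairs and at 0.429 to 0.533 between them.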
